A study of Mus musculus with 8 samples.

Results

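Hedgehog-responding basal keratinocytes of resting mouse back skin were compared with basal cells sorted from the same skin as interfollicular epidermis. The comparison takes 5 of the 8 arrays of the study: 2 of Gli1+ cells (replicates 2 and 3) and 3 of interfollicular cells, called IFE here (replicates 1, 2 and 3). All mice were Gli1-eGFP/+ on an outcrossed Swiss Webster background and were adults in telogen, the resting stage of the hair cycle, and each sample pooled 2 mice. Gli1+ cells were GFP-positive, and IFE cells were GFP-negative and CD34-negative. Both were viable, single and stained for α6 integrin, the surface protein that marks basal keratinocytes. The remaining 3 arrays hold GFP-negative, CD34-positive cells of the same mice (CD34+), whose sort marks the bulge of the hair follicle. Gli1+ RNA of replicate 1 was not hybridised because its quality was too low. The labels describe the IFE fraction as mostly interfollicular epidermis with the infundibulum, the upper part of the follicle, so it holds more than 1 kind of basal cell.

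Hedgehog signalling starts when a secreted ligand binds the receptor Ptch1, which releases the membrane protein Smo and lets Gli transcription factors activate their targets. Gli1 carries the signal and is itself induced by it, so a reporter of its expression marks cells that are receiving the signal. In the resting follicle, Gli1-expressing cells have been described in the upper bulge, beside sensory nerve endings, and in the lower bulge and hair germ. The bulge holds stem cells that rebuild the follicle, and the interfollicular epidermis between follicles is maintained by its own basal cells.

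Levels are log2 intensities after background correction and quantile normalisation, for 9545 genes that were detected on at least 2 arrays. A difference is the mean of the Gli1+ arrays minus that of the IFE arrays on the log2 scale, with its standard error (SE) from a limma fit across all 8 arrays. A gene is called when its Benjamini-Hochberg adjusted p over all genes is under 0.05. Gli1+ arrays detected 11188 and 9925 probes, against 11027 to 11680 on the IFE arrays. The Gli1+ arrays correlated at 0.82 with each other across genes, which are not independent replicates, against 0.943 to 0.95 among the IFE arrays. With replicate 2 of the Gli1+ cells, IFE arrays gave 0.873 to 0.882 and CD34+ arrays 0.876 to 0.887, so it was closer to each of them than to the other Gli1+ array. Gli1+ replicate 3 lacked 946 probes that all other arrays detected and Gli1+ replicate 2 lacked 245, against 72 to 172 on the IFE arrays. In RNA from sorted populations, fewer cells of a type and less RNA per cell cannot be told apart.

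The genes behind the sort were read first. Gli1 stood at 8.82 and 8.36 on the Gli1+ arrays, against 5.07, 5.32 and 5.01 on the IFE arrays (difference 3.46 ± 0.42 SE, limma adjusted p = 0.00751). Its IFE levels lay near the detection limit, and the groups did not overlap. Because GFP was used to sort the cells, this difference checks the labels against IFE and is no finding. On the GFP-negative CD34+ arrays Gli1 stood at 7.055, 8.42 and 7.35. Its level therefore does not check the Gli1+ label against CD34+ cells. Cd34, the gene of the bulge surface protein, stood at 8.18 and 8.47 on the Gli1+ arrays, against 5.46, 6.31 and 5.44 on the IFE arrays (2.59 ± 0.35). CD34 staining removed cells from the IFE fraction and not from the Gli1+ fraction, so the sort bears on this difference as well. Itga6, the α6 integrin of the gate, stood at 8.61 and 9.29 on the Gli1+ arrays and at 9.62, 9.79 and 9.67 on the IFE arrays (-0.75 ± 0.31, adjusted p = 0.237). Its level did not differ past the threshold between fractions that were both gated on it.

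Prdm1 and Wif1, markers given for the Gli1+ cells, were both higher. Prdm1 encodes the transcriptional repressor Blimp1, which is known in the skin from sebaceous gland and upper follicle cells. It stood at 8.32 and 9.20 on the Gli1+ arrays, against 5.66, 5.78 and 6.05 on the IFE arrays, a 7.62-fold difference (2.93 ± 0.36, limma adjusted p = 0.00751). Wif1, a secreted inhibitor that binds Wnt ligands, stood at 8.67 and 8.72 on the Gli1+ arrays and at 4.99, 4.69 and 4.60 on the IFE arrays. Its probe was detected on no IFE array, so the fold is a bound, at least 10.7-fold (3.94 ± 0.50, adjusted p = 0.00751). In both genes the lower Gli1+ array lay above every IFE array.

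Of the 9545 genes, 206 (2.16%) were called, 124 higher (1.30%) and 82 lower (0.859%) in Gli1+ cells. At least a 4-fold difference was found in 88 of the higher and 39 of the lower genes. All 206 had groups that did not overlap, as did 3013 of all genes (31.6%), and in all 206 each Gli1+ array lay more than 1 log2 unit from the IFE mean in the called direction. The median difference of all genes was -0.05. Higher genes made up 60.2% of the calls, against 82.9% with median centring, 77.7% with cyclic loess and 92.9% with the deposited log2 values. These counts rest on few arrays and on 1 spread shared by all groups. The Gli1+ arrays correlated less with each other (0.82) than the IFE or CD34+ arrays did (0.933 to 0.95). The SEs and adjusted p therefore draw in part on the closer IFE and CD34+ arrays. A fit to the 5 arrays alone called 6 genes. One with array quality weights, 0.41 for each Gli1+ array and 1.1 to 1.63 for the others, called 3. Without IFE replicate 1, 2 or 3 the fit called 42, 50 and 39 genes, and with 1 Gli1+ array left it called 340 (replicate 2 kept) or 1225 (replicate 3 kept). With 1 Gli1+ array the spread comes from the IFE and CD34+ groups, and the lone array is assumed to vary like them. Replicates of the same number come from the same mice, and with the replicate number as a block 63 of the 206 genes passed, 52 higher and 11 lower. A set of 31 genes, 29 higher and 2 lower, passed in all 5 fits that leave out an array of these groups and with the block. They are called stable below, a rule chosen after the values were seen. The rule does not cover the fit to the 5 arrays alone or the one with array quality weights, so most stable genes missed the threshold in those.

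**Figure D1:**
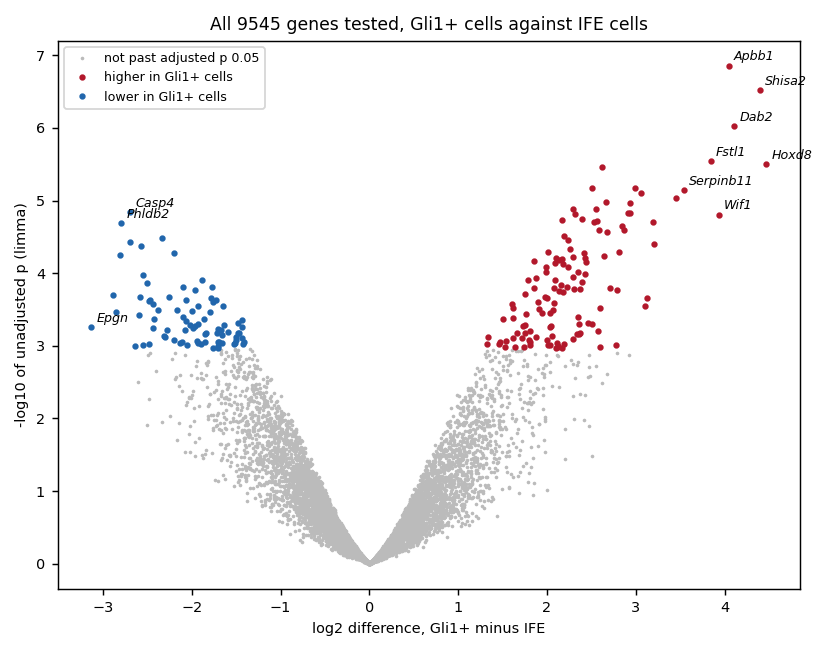
Each point is 1 of 9545 genes, with the log2 difference (Gli1+ minus IFE) on the x axis and the -log10 of the unadjusted limma p on the y axis. Red points are the 124 genes called higher in Gli1+ cells, blue points the 82 called lower, and the largest differences lie on the higher side, with Hoxd8 at 4.47 against -3.13 for Epgn.

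The largest increases were in genes of quite different function. Hoxd8, a homeobox transcription factor of body position, stood at 10.41 and 10.31 on the Gli1+ arrays, against 4.90, 6.64 and 6.15 on the IFE arrays, 22.1-fold (4.47 ± 0.48, limma adjusted p = 0.00547). Shisa2, which holds back the maturation of Wnt and FGF receptors, stood at 9.81 and 9.47 on the Gli1+ arrays and at 4.86, 5.35 and 5.53 on the IFE arrays (4.39 ± 0.36, adjusted p = 0.00145), with 3.23 from its other probe. Dab2, an endocytic adaptor, stood at 9.07 and 9.25 on the Gli1+ arrays and at 4.58, 5.20 and 5.39 on the IFE arrays (4.11 ± 0.38). The groups did not overlap in any of the 3, but a further probe of Dab2 gave a difference of 0.59. Apbb1, whose product binds the tail of the amyloid precursor protein, stood at 9.22 and 9.87 on the Gli1+ arrays, against 5.54, 5.48 and 5.49 on the IFE arrays (4.05 ± 0.31, adjusted p = 0.00132). Serpinb11, a member of the serpin family, stood at 9.47 and 9.20 on the Gli1+ arrays and at 5.51, 5.29 and 6.60 on the IFE arrays (3.54 ± 0.41). Shisa2, Dab2 and Apbb1 were the named genes called under every alternative tried.

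**Figure D2:**
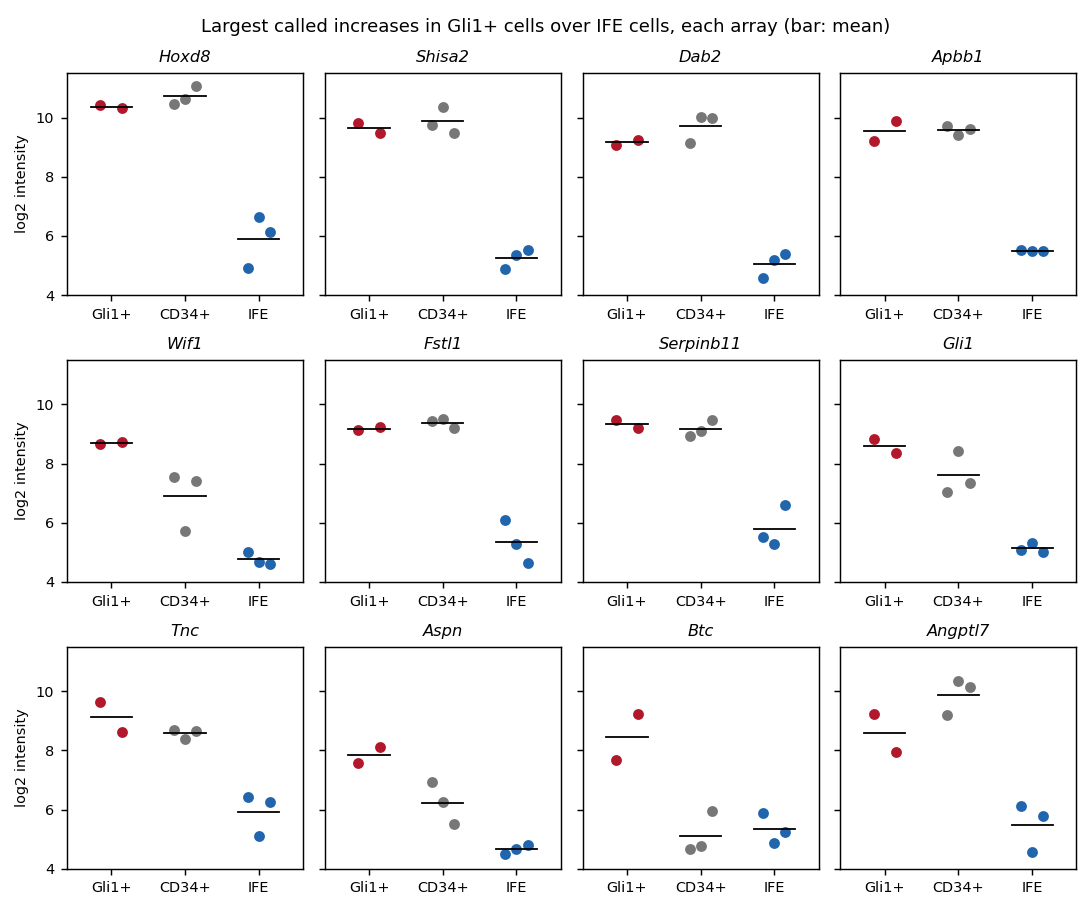
Each panel is 1 of the 12 genes with the largest called increases. The y axis is the log2 intensity, each point is an array, and the bar is the group mean, with Gli1+ at the left, CD34+ in the middle and IFE at the right. In all 12 panels the Gli1+ points lie above the IFE points, and in Btc the CD34+ points lie with IFE.

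Bulge stem cell genes were the list with the highest median difference among the 34 families. Of 26 members tested, 10 were called higher and none lower, against 1.30% and 0.859% of all genes. A positive difference was found in 25, against 4408 of all 9545 genes. The list's median difference was 1.37, against -0.05 for all genes tested, and 1.45 and 1.38 when Gli1+ replicate 2 or 3 alone was set against the IFE mean. Without IFE replicate 1, 2 or 3 the called members numbered 6, 6 and 5, with the replicate block 8, in a fit to the 5 arrays alone 1, and with array quality weights 0. The list's genes were chosen from earlier knowledge of bulge cells and with results of these arrays known. CD34-positive cells, the sort's mark of the bulge, were removed from the IFE fraction and not from the Gli1+ fraction. The sort therefore bears on the direction of this whole list, as it does on Cd34.

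Among its called members were receptors, secreted proteins and a transcription factor. Lgr5, the R-spondin receptor of follicle stem cells, stood at 7.28 and 8.07 on the Gli1+ arrays and at 5.33, 4.75 and 4.93 on the IFE arrays, at least 5.29-fold (2.67 ± 0.36, limma adjusted p = 0.00872, and 0.0514 without IFE replicate 3). Angptl7, a secreted angiopoietin-like protein, stood at 9.24 and 7.95 on the Gli1+ arrays and at 6.12, 4.57 and 5.79 on the IFE arrays (3.10 ± 0.57). Lhx2, a LIM homeobox factor that maintains bulge stem cells, stood at 6.95 and 6.69 on the Gli1+ arrays and at 4.73, 4.69 and 4.54 on the IFE arrays, at least 2.93-fold (2.17 ± 0.28). The calcium-binding protein S100a4 differed by 2.29 ± 0.29 and the Dickkopf family member Dkk3 by 2.43 ± 0.39. The Wnt receptor Fzd2 was detected on no IFE array and was at least 3.11-fold higher. Not past the threshold were Sox9 (1.51), Nfatc1 (1.41, with 0.08 to 1.44 from its other probes) and Id2 (1.79), regulators of bulge cells, and Krt15 (0.53), a keratin used as a bulge marker. Tcf7l1, a repressor of Wnt targets, had the single negative difference (-0.78). Lhx2 and S100a4 were stable, while Angptl7 missed the threshold without IFE replicate 1 (0.0622), 2 (0.0855) or 3 (0.0898) and with the block (0.0923). Without IFE replicate 1, 2 or 3, Dkk3 (0.0547, 0.0588 and 0.0608) and Fzd2 (0.0576, 0.0591 and 0.0608) missed it narrowly.

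Of 19 matrix and matricellular genes outside the collagens, 7 were called higher and none lower, against 1.30% and 0.859% of all genes. Their median difference was 0.38, and Tnc among the called members is also in the bulge list. Tenascin C (Tnc), a matrix protein of the bulge, stood at 9.63 and 8.63 on the Gli1+ arrays and at 6.42, 5.10 and 6.27 on the IFE arrays (3.20 ± 0.46, limma adjusted p = 0.0106), with 0.62 and 3.56 from its other probes. Fbln1 (fibulin 1) stood at 10.48 and 10.19 on the Gli1+ arrays, against 8.05, 6.83 and 7.30 on the IFE arrays (2.94 ± 0.37), with 1.93 and 2.74 from its other probes. Ccn2, a matricellular protein and TGF-beta target, stood at 10.75 and 11.02 on the Gli1+ arrays, against 8.57, 8.002 and 8.09 on the IFE arrays (2.66 ± 0.32). The groups are apart in all 3 genes, which were stable. Asporin (Aspn), a small leucine-rich proteoglycan, stood at 7.59 and 8.10 on the Gli1+ arrays and at 4.48, 4.67 and 4.80 on the IFE arrays, at least 5.94-fold (3.19 ± 0.42), and was also stable. The proteoglycan biglycan (Bgn, 2.58 ± 0.52), periostin (Postn, 2.17 ± 0.33) and Ltbp1, which binds latent TGF-beta (2.01 ± 0.44), completed the called members. The other 5 probes of Ltbp1 gave -0.23 to 1.26. The called members numbered 4 without IFE replicate 1, 2 or 3, 1 in a fit to the 5 arrays alone and 0 with array quality weights. Postn (0.0622, 0.0588 and 0.0522), Bgn (0.101, 0.132 and 0.133) and Ltbp1 (0.0813, 0.13 and 0.138) missed the threshold without IFE replicate 1, 2 and 3, Ltbp1 also without Gli1+ replicate 3 (0.096) and Postn with the block (0.0576).

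Of 10 collagen genes outside the basement membrane, 1 was called, where 2.16% of all genes were called. Col6a2, a chain of collagen VI, stood at 7.83 and 6.95 on the Gli1+ arrays and at 4.43, 5.26 and 4.54 on the IFE arrays (2.64 ± 0.40, limma adjusted p = 0.0129), and missed the threshold without IFE replicate 1 (0.0622) or 3 (0.0654). The other 9 collagen genes were not called, with Col5a1 at 2.67 and Col5a2 at 1.45. Of 13 integrins, Itgb5, the β5 subunit, was called (7.26 and 8.63 on the Gli1+ arrays, 5.36, 6.02 and 5.07 on the IFE arrays, 2.46 ± 0.48). The α3 (-1.78), α2 (-1.18) and β4 (-1.03) subunits of basal keratinocytes were lower in value and not called. The list's median was -0.47. Itgb5 missed the threshold without Gli1+ replicate 3 (0.0802) and without IFE replicate 1 (0.131), 2 (0.0656) or 3 (0.134), and with the block (0.107). Of 20 basement membrane and hemidesmosome genes none passed the threshold. Col4a3, which no IFE array detected, was nearest to it (at least 2.11-fold, adjusted p = 0.0515).

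Of 39 Wnt ligands, receptors and inhibitors tested, 5 were called higher and 1 lower, against 1.30% and 0.859% of all genes, with a median of 0.06. The fit to the 5 arrays alone called 2 higher and the one with array quality weights 1. The higher ones were the inhibitors Shisa2, Wif1 and Dkk3 and the receptors Lgr5 and Fzd2. Of these, Wif1, Dkk3, Lgr5 and Fzd2 also belong to the bulge list, so the same calls were counted there. The lower one was Wnt5a, a ligand of non-canonical signalling, at 6.13 and 5.37 on the Gli1+ arrays, against 8.29, 8.71 and 8.03 on the IFE arrays (-2.59 ± 0.49, limma adjusted p = 0.0323). Of the other ligands, Wnt10a (-1.39), Wnt3 (-1.02) and Wnt3a (-0.97) were not called, nor was the target Axin2 (-1.25). The Frizzled receptors Fzd1 (1.47) and Fzd3 (1.32) were not called either. Wnt5a missed the threshold without Gli1+ replicate 3 (0.0776) and without IFE replicate 1 (0.111), 2 (0.114) or 3 (0.0931).

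The BMP and TGF-beta list held 38 tested genes, 6 called higher and none lower, against 1.30% and 0.859% of all genes, with a median near 0. Fstl1, a secreted glycoprotein that binds BMP ligands, stood at 9.14 and 9.23 on the Gli1+ arrays and at 6.08, 5.28 and 4.66 on the IFE arrays (3.84 ± 0.40, limma adjusted p = 0.00547). The BMP antagonist Grem1 stood at 10.24 and 10.29 on the Gli1+ arrays, against 8.24, 7.44 and 7.53 on the IFE arrays (2.52 ± 0.33). Both genes were stable. The ligand Tgfb2 stood at 8.89 and 9.28 on the Gli1+ arrays, against 7.07, 6.80 and 6.62 on the IFE arrays (2.25 ± 0.33), and missed the threshold without IFE replicate 2 (0.0552) or 3 (0.0608). Id1, a BMP target, rose by 1.53 ± 0.33 (0.0996 without Gli1+ replicate 3, 0.0813, 0.151 and 0.155 without IFE replicates 1, 2 and 3, and 0.0751 with the block), and Ccn2 and Ltbp1 were given above. Bmp4, a ligand, differed by -2.17 and was not called. The fit to the 5 arrays alone and the one with array quality weights called 0 members.

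In the FGF, EGF and IGF group, 2 of 27 were called higher and 1 lower, against 1.30% and 0.859% of all genes. All 3 concern EGF or FGF signalling. The EGF receptor ligand betacellulin (Btc) stood at 7.69 and 9.22 on the Gli1+ arrays and at 5.88, 4.86 and 5.25 on the IFE arrays (3.13 ± 0.55, limma adjusted p = 0.0246). Epigen (Epgn), another ligand of that receptor, stood at 4.76 and 6.21 on the Gli1+ arrays and at 8.99, 8.05 and 8.81 on the IFE arrays (-3.13 ± 0.62, adjusted p = 0.0396). The receptor Fgfr1 stood at 10.48 and 9.67 on the Gli1+ arrays and at 8.37, 7.99 and 7.62 on the IFE arrays (2.08 ± 0.35). A further EGF-type ligand, epiregulin (Ereg), differed by 2.48 and was not called. Btc missed the threshold without Gli1+ replicate 3 (0.0573) or IFE replicate 1 (0.0622), 2 (0.0949) or 3 (0.096), Epgn without IFE replicate 1 (0.136), 2 (0.0855) or 3 (0.136) and with the block (0.0821), and Fgfr1 without IFE replicate 1 (0.0547), 2 (0.0771) or 3 (0.0898).

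Hedgehog genes other than Gli1 moved less uniformly. Of 10 hedgehog targets tested, Gli1 and Mycn were higher, Cdk6 was lower and 7 were not called, where 2.16% of all genes were called. Gli1 is the gene whose reporter sorted the cells, so its call is no finding. The calls that do not follow from the sort by GFP are Mycn and Cdk6. Mycn, a growth-promoting transcription factor, stood at 6.91 and 6.26 on the Gli1+ arrays and at 4.83, 4.67 and 4.64 on the IFE arrays, at least 2.49-fold (1.87 ± 0.30, limma adjusted p = 0.0182). Cdk6, a kinase of the G1 phase, stood at 5.27 and 6.13 on the Gli1+ arrays and at 7.49, 7.06 and 7.71 on the IFE arrays (-1.72 ± 0.35, adjusted p = 0.0432). Ptch1, the receptor and a direct target, stood at 5.93 and 7.95 on the Gli1+ arrays and at 5.28, 5.29 and 5.64 on the IFE arrays (1.54 ± 0.52, adjusted p = 0.151). Its Gli1+ levels lie above every IFE level but 2.01 log2 units apart from each other. Of 7 ligands, receptors and transducers none was called, with the co-receptor Gas1 at 1.27 ± 0.31 (adjusted p = 0.066) and Smo at -0.44 ± 0.48, with 0.75 and -0.03 from its other probes. Mycn missed the threshold without IFE replicate 1 (0.0622), 2 (0.0655) or 3 (0.0792) and with the block (0.0608). Cdk6 missed it without IFE replicate 1 (0.136), 2 (0.0784) or 3 (0.14) and with the block (0.0973).

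Of 47 transcription factors of follicle and epidermis, 4 were called higher, against 1.30% of all genes, with a median of -0.07. These were Prdm1, Lhx2 and the homeobox genes Dlx3 (1.98 ± 0.31, limma adjusted p = 0.0164) and Dlx2 (at least 2.52-fold, detected on no IFE array, adjusted p = 0.048), known in hair and placode development. Lhx2 is also in the bulge list. The Dlx3 levels were 8.24 and 7.72 on the Gli1+ arrays and 5.77, 6.07 and 6.15 on the IFE arrays. Dlx3 missed the threshold with the block (0.0575) and without IFE replicate 1 (0.0764), 2 (0.0588) or 3 (0.0616). Dlx2 missed it with the block (0.121), without Gli1+ replicate 3 (0.096) and without IFE replicate 1 (0.133), 2 (0.131) or 3 (0.14). Of 24 Hox genes tested, Hoxd8 was the called member, while Hoxc13 (2.04), a hair keratin regulator, was not.

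Of 33 epidermal differentiation genes on the list, 2 were called higher, against 1.30% of all genes. A positive difference was found in 26, against 4408 of all 9545 genes, and the median was 0.52. Sprr1b, a cornified envelope precursor, stood at 7.55 and 8.20 on the Gli1+ arrays, against 5.37, 5.69 and 5.66 on the IFE arrays (2.30 ± 0.39, limma adjusted p = 0.0213). Calml3, a calmodulin-like protein of differentiating epithelia, stood at 9.49 and 9.53 on the Gli1+ arrays, against 6.28, 8.10 and 7.59 on the IFE arrays (2.19 ± 0.47, adjusted p = 0.048). The list's median was 0.34 with Gli1+ replicate 2 and 0.88 with replicate 3 against the IFE mean. No member was called in a fit to the 5 arrays alone, with array quality weights, without Gli1+ replicate 3, without any 1 of the IFE arrays, or with the replicate block, where the adjusted p was 0.0536 for Sprr1b and 0.118 for Calml3. Of 19 keratins on the list, Krt24 was called (9.95 and 10.99 on the Gli1+ arrays, 8.02, 8.20 and 6.81 on the IFE arrays, 2.79 ± 0.48). Krt24 missed the threshold without IFE replicate 1 (0.0671), 2 (0.0534) or 3 (0.0654) and with the block (0.0757). Outside the lists, the keratin Krt42 (at least 3.76-fold, limma adjusted p = 0.0164) and the cornified envelope gene Lce1l (at least 3.61-fold, 0.0131) were also called higher. Both missed the threshold without IFE replicate 1, 2 or 3 and with the block (0.0576 and 0.0575). The basal keratins Krt5 (-0.05) and Krt14 (-0.57) were not called.

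Dnase1l2, Tgm5, Timp2 and Sardh belong to no list and were chosen after their values were seen, as stable increases. Dnase1l2, a nuclease that breaks down DNA in cornifying cells, stood at 8.25 and 7.17 on the Gli1+ arrays and at 4.52, 4.87 and 4.56 on the IFE arrays, at least 5.41-fold (3.06 ± 0.36, limma adjusted p = 0.00745), but its other probes gave -0.38 and 1.01. Tgm5, an epidermal transglutaminase, stood at 7.60 and 7.32 on the Gli1+ arrays and at 4.90, 4.86 and 4.77 on the IFE arrays, at least 4.55-fold. Timp2, an inhibitor of metalloproteinases, stood at 9.9997 and 9.59 on the Gli1+ arrays, against 7.01, 7.15 and 6.25 on the IFE arrays (2.99 ± 0.35). Sardh, the mitochondrial sarcosine dehydrogenase, stood at 8.73 and 8.23 on the Gli1+ arrays, against 5.07, 6.09 and 5.53 on the IFE arrays (2.91 ± 0.37). The groups did not overlap in any of the 4.

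The 12 genes with the largest called decreases included Epgn and Wnt5a, given above. Casp4, the caspase that senses bacterial lipopolysaccharide, stood at 5.996 and 5.32 on the Gli1+ arrays, against 8.27, 8.37 and 8.44 on the IFE arrays, 6.50-fold lower (-2.70 ± 0.34, limma adjusted p = 0.00751), with -1.86 and -2.15 from its other probes. Phldb2, a protein that links microtubules to the basal cell cortex, stood at 5.91 and 5.90 on the Gli1+ arrays, against 9.10, 8.43 and 8.59 on the IFE arrays (-2.80 ± 0.37, adjusted p = 0.00756). These were the 2 stable decreases. Il1rl2, the receptor for interleukin 36, stood at 5.54 and 4.86 on the Gli1+ arrays, against 7.73, 7.80 and 8.16 on the IFE arrays (-2.70 ± 0.38), and missed the threshold without IFE replicate 3 (0.0605). Nfkbid, an atypical inhibitor of NF-kappaB, stood at 4.75 and 5.85 on the Gli1+ arrays and at 8.54, 7.56 and 8.38 on the IFE arrays (-2.86 ± 0.53), and missed it without IFE replicate 1 (0.121), 2 (0.0594) or 3 (0.115). The lipid transporter Mfsd2a (-2.81 ± 0.42), the glutamine-rich protein gene Qrich1 (-2.89 ± 0.50), the ubiquitin ligase adaptor Dcaf5 (at least 3.86-fold lower), the mitochondrial kinase Pdk4 (at least 4.16-fold lower), the chromatin protein Brd1 (-2.58 ± 0.37) and the mitochondrial iron-sulfur protein Cisd1 (-2.55 ± 0.55) were the others. The probes of Dcaf5 and Pdk4 were detected on no Gli1+ array, so their place among the 12 rests on fitted differences below the detection limit. Each of these 6 missed the threshold without at least 1 IFE array, between adjusted p = 0.0528 (Dcaf5 without IFE replicate 2) and 0.164 (Dcaf5 without IFE replicate 1), and Cisd1, Dcaf5 and Qrich1 also without Gli1+ replicate 3 (0.0623, 0.0788 and 0.0532). With the block, Cisd1 (0.077), Pdk4 (0.082), Dcaf5 (0.128) and Qrich1 (0.0848) missed it too.

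**Figure D3:**
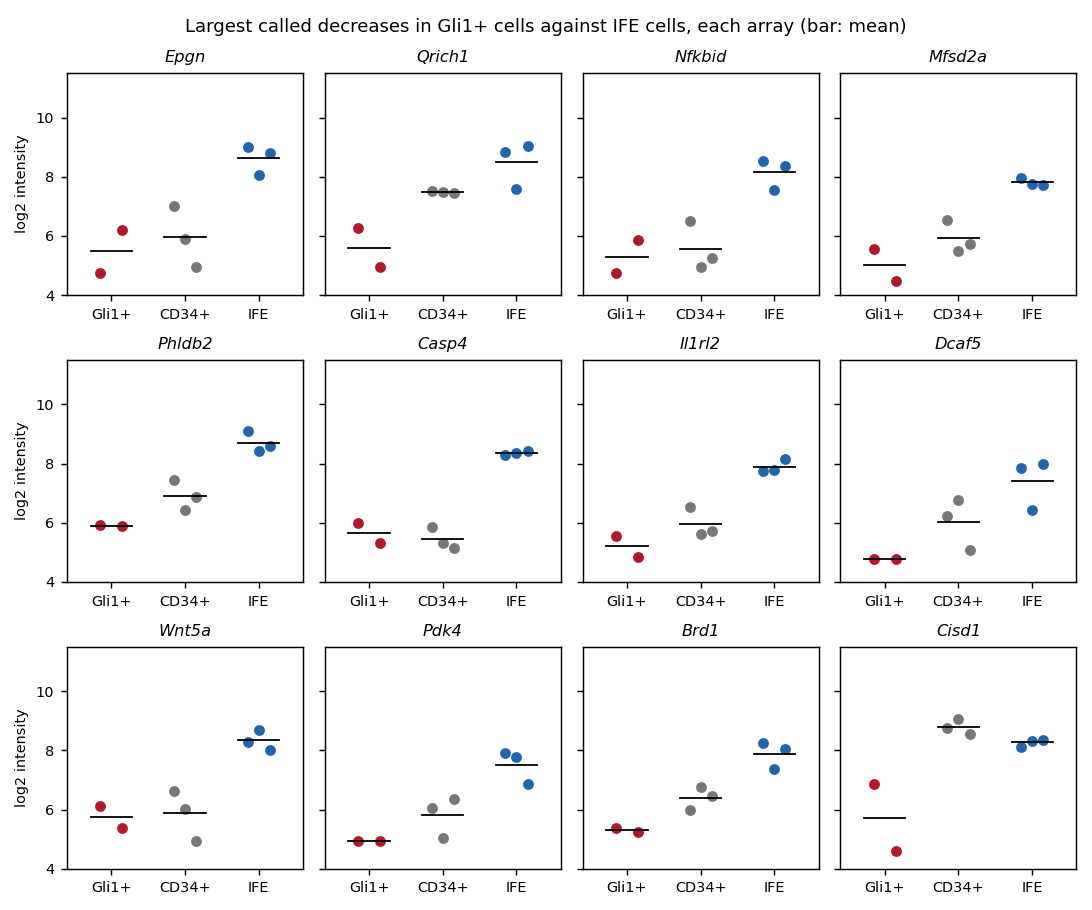
Each panel is 1 of the 12 genes with the largest called decreases, plotted as log2 intensity per array with a bar at the group mean, Gli1+ at the left, CD34+ in the middle and IFE at the right. Every Gli1+ point lies below every IFE point, and Casp4 has 3 IFE arrays within 8.27 to 8.44.

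Of 36 tested members of the list of cytokines, chemokines and receptors, 1 was called higher and 2 lower, against 1.30% and 0.859% of all genes. A negative difference was found in 24, against 5137 of all 9545 genes. The list's median was -0.60, the lowest among the 34 families. Il31ra, through which interleukin 31 signals itch, stood at 7.73 and 7.37 on the Gli1+ arrays and at 5.19, 5.02 and 4.94 on the IFE arrays, at least 4.85-fold (2.50 ± 0.29, limma adjusted p = 0.00745), and was stable. The interleukin 20 receptor Il20ra stood at 6.80 and 5.89 on the Gli1+ arrays, against 8.16, 8.21 and 8.46 on the IFE arrays (-1.93 ± 0.38, adjusted p = 0.0388), with -0.84 and -0.90 from its other probes. The interleukin 6 receptor Il6ra stood at 4.63 and 5.61 on the Gli1+ arrays, against 6.84, 6.96 and 6.66 on the IFE arrays, at least 2.56-fold lower (-1.70 ± 0.34). Both decreases missed the threshold without IFE replicate 1 (0.114 for Il20ra and 0.131 for Il6ra), 2 (0.109 and 0.124) or 3 (0.133 and 0.107), and with the block (0.0644 and 0.113), and Il20ra also without Gli1+ replicate 3 (0.0821). Members that were not called included Il18r1 (-2.40), Osmr (-1.63), Il34 (-1.49) and Il33 (-1.26). With the block, Il31ra was the 1 called member, and the fit to the 5 arrays alone and the one with array quality weights called 0. Other genes of this kind, outside the list, were chosen after their values were seen and in the lower direction alone. The chemokine Ccl7 (-2.38, at least 3.03-fold), the chemokine receptor gene Ccrl2 (-1.79, at least 2.70-fold) and Cd40 (-1.77, at least 2.16-fold) were called lower. No Gli1+ array detected these. Ackr2, another chemokine receptor gene, was called lower (-2.10), as was Il1rl2, given above. Ccl7, Ccrl2, Ackr2 and Cd40 missed the threshold without IFE replicate 2 (0.0987, 0.0897, 0.0771 and 0.0771) or 3 (0.0916, 0.0761, 0.0885 and 0.087). They also missed it with the block (0.0646, 0.0848, 0.06 and 0.0614). Without IFE replicate 1, Ccl7 (0.115), Ccrl2 (0.0992) and Cd40 (0.0505) missed it too.

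**Figure D4:**
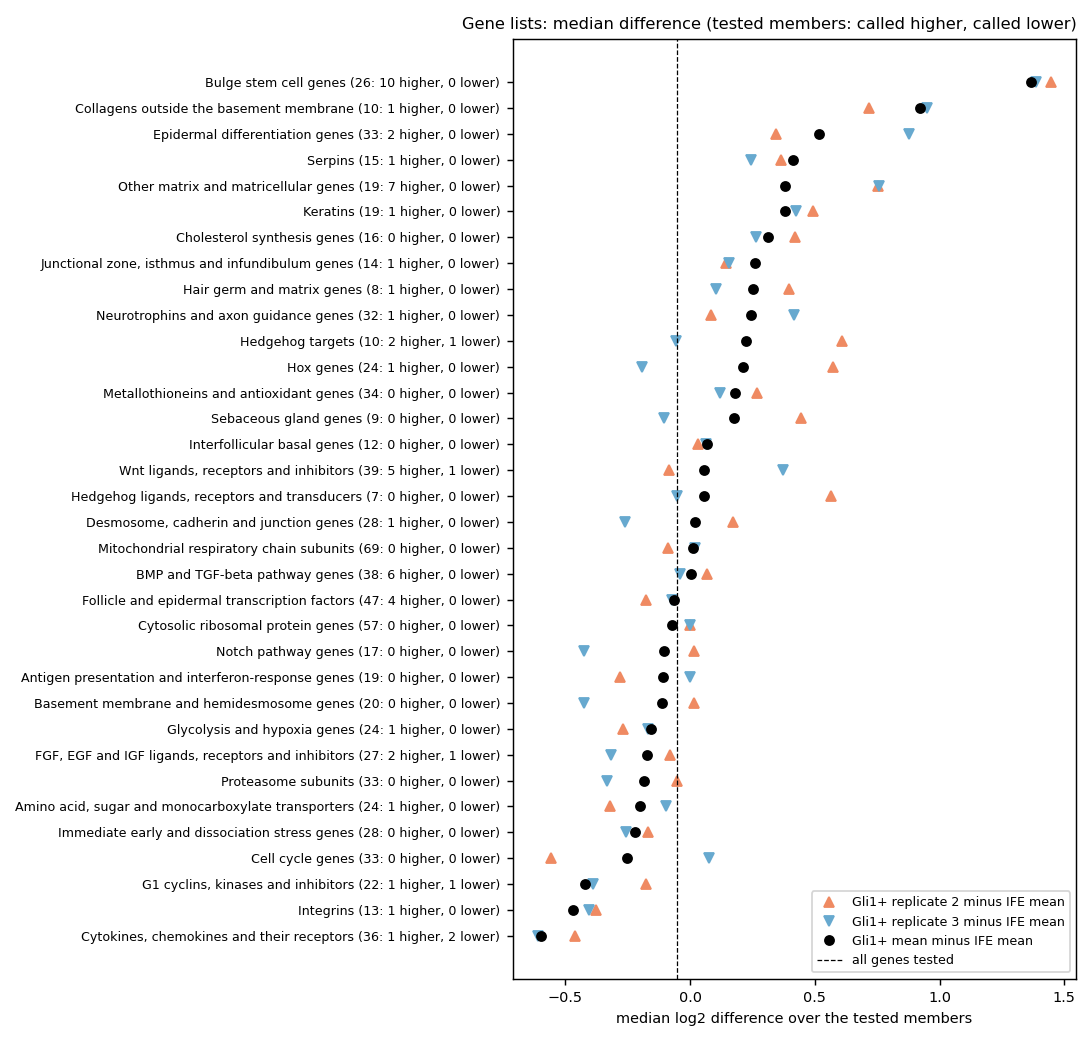
The median log2 difference of each family of at least 5 tested genes is shown as a black point (Gli1+ mean minus IFE mean), with triangles for each Gli1+ array against the IFE mean and a dashed line at the median of all genes tested. Bulge stem cell genes lie highest at 1.37 and cytokines, chemokines and receptors lowest at -0.60, and the Gli1+ arrays disagree most in the cell cycle, hedgehog and Hox families.

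Several families held no called gene, where 2.16% of all genes were called and lists of this size would hold few. None of 33 cell cycle genes was called, with medians of -0.56 and 0.08 for Gli1+ replicates 2 and 3 against the IFE mean. Foxm1, a driver of mitotic genes, stood at 6.69 and 6.33 on the Gli1+ arrays, against 8.19, 7.85 and 8.04 on the IFE arrays (-1.52 ± 0.34, limma adjusted p = 0.0514). None of 28 immediate early and dissociation stress genes was called, with a median of -0.22 and 23 negative differences, against 5137 of all 9545 genes. Myc differed by -1.11 ± 0.33 and Fosl1 by -0.96 ± 0.37. None of 69 respiratory chain subunits (median 0.01), 57 cytosolic ribosomal protein genes (-0.07), 33 proteasome subunits (-0.18), 34 metallothionein and antioxidant genes (0.18), 17 Notch pathway genes (-0.10), 16 cholesterol synthesis genes (0.31) and 12 interfollicular basal genes (0.07) was called. In the last list, Fgfbp1, a carrier of FGF, differed by -1.04 ± 0.35 and the connexin Gjb2 by 1.82 ± 0.80, with -0.17 from its other probe.

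Some families held a single called gene, where 2.16% of all genes were called and lists of this size would hold few. Cldn8, a tight junction claudin, rose by 1.62 ± 0.30 among 28 junction genes. The axon guidance ligand Sema3e rose by 1.90 ± 0.35 among 32 neurotrophin and guidance genes, and the amino acid transporter Slc38a4 by 1.73 ± 0.34 among 24 transporters. The glycolysis regulator Pfkfb4 rose by 2.17 ± 0.47 among 24 glycolysis and hypoxia genes. Each of the 4 missed the threshold without IFE replicate 1, 2 or 3, at adjusted p of 0.0591 to 0.162, and with the block, at 0.0772 to 0.115, and Cldn8, Sema3e and Pfkfb4 also without Gli1+ replicate 3 (0.0523, 0.0579 and 0.11).

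Detection gave a count that does not depend on the fit. Both Gli1+ arrays and no IFE array detected 186 probes of 174 genes, among them probes of Wif1, Aspn, Lgr5, Il31ra, Lhx2 and Mycn. All IFE arrays and no Gli1+ array detected 361 probes of 332 genes, among them probes of Il6ra, Pdk4 and Dcaf5. The 5 arrays shared 7419 detected probes. Gli1+ replicate 3 detected fewer probes than any other array, which was given above, and its part in the larger number of probes seen on IFE arrays alone was not tested.

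The upstream sequence of called genes was searched for the letters CCACCCA, the core of the site bound by Gli proteins, and its reverse complement TGGGTGG, in the 250 bases before the start of each gene. RefSeq promoter entries of build GRCm38.p6 were used, and Gli1 was named in no entry. The core was present in 17 of the 95 genes called higher that had an entry (17.9%), in 2 of 66 called lower (3.03%) and in 10.5% of the 7762 tested genes with an entry, or 9.29% of 27025 genes in the table. The longer form GACCACCCA was in no called gene and in 0.26% of the table. A match is a description of letters. The 6 stable genes that hold the core are shown, since they passed in each fit that leaves out an array. Fits that keep 1 Gli1+ array take their spread from the other groups, so passing those says little about the Gli1+ arrays. The core is in capitals, and each stretch is written 5′ to 3′ on the strand of its gene.
Grem1, chr2:113758826-113758898, minus strand: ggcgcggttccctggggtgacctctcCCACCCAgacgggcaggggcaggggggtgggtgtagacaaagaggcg
Lhx2, chr2:38339186-38339272, plus strand: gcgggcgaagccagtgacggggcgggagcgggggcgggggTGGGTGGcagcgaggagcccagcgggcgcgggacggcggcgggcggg
Fbln1, chr15:85205850-85205936, plus strand: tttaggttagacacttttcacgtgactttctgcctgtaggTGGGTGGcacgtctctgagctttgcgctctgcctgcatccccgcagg
Serpinb11, chr1:107362064-107362112, plus strand: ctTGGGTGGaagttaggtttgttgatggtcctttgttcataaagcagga
Sardh, chr2:27247304-27247386, minus strand: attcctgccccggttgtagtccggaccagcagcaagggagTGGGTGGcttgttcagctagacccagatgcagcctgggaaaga
Timp2, chr11:118355593-118355661, minus strand: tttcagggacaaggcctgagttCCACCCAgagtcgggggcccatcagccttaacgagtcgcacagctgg
The core begins 224 bases before the start of Grem1, 55 before that of Lhx2, 248 before that of Serpinb11, 43 before that of Sardh and 228 before that of Timp2. Fbln1 has 2 entries, in which the core shown lies 59 and 118 bases before the start, and the second entry holds a further core 65 bases before its start.

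Markers of other cell types were read for the same arrays. All 8 tested Langerhans cell and macrophage markers had a positive difference, against 4408 of all 9545 genes, and none was called. Their summed linear intensity was 1246 and 1842 on the Gli1+ arrays, against 528.2 to 824.5 on the IFE arrays. H2-Ab1, an MHC class II gene, differed by 1.41 ± 0.32 (limma adjusted p = 0.0546) and H2-Aa by 1.87 ± 0.48, while Adgre1, Fcer1g, Itgam and Lyz2 did not pass the detection filter. Of 4 tested fibroblast and dermal papilla markers, Col6a2 was called and all 4 were positive. Their sum was 472.6 and 736.7 on the Gli1+ arrays, against 226.7 to 435.1 on the IFE arrays, and 13 others, among them Col1a1, Col3a1, Pdgfra, Vim and Lum, did not pass. The part of these cells in the increases of matrix genes was not tested. Mitf, a melanocyte transcription factor, stood at 8.14 and 6.90 on the Gli1+ arrays and at 5.05, 5.06 and 5.27 on the IFE arrays (2.39 ± 0.39), with Tyr, Dct and Tyrp1 not passing the filter and Pmel at 0.03. Slc24a5, a pigment cell gene outside the list, was also called higher (1.89, limma adjusted p = 0.026). Slc24a5 missed the threshold without IFE replicate 1 (0.101), 2 (0.0594) or 3 (0.096) and with the block (0.0619). Hba-a1, a haemoglobin chain, stood at 6.49 and 8.17 on the Gli1+ arrays, against 4.88, 5.10 and 4.96 on the IFE arrays, at least 4.17-fold (2.35 ± 0.45). Merkel cell, endothelial, T cell, Schwann cell and muscle or adipocyte lists held no called gene. Of their members on the array, 3 of 11, 2 of 10, 6 of 10, 4 of 7 and 1 of 11 were tested. The rest did not pass the detection filter and could not be called. Mitf and Hba-a1 missed the threshold without IFE replicate 1 (0.0813 and 0.116), 2 (0.0745 and 0.0967) or 3 (0.0761 and 0.112), and with the block (0.0536 and 0.0705).

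Whether the genes above also differed from the GFP-negative bulge cells was read from the same fit, in which 136 genes (1.42%) were called between Gli1+ and CD34+ cells. Both comparisons use the same Gli1+ arrays. Of the 124 genes called higher than in IFE cells, 20 were also called higher than in CD34+ cells, against 55 of all 9545 genes. Of the same 124, 101 were not called against CD34+ cells, and 53 had a difference from CD34+ cells below 0. Against CD34+ cells, Prdm1 differed by 2.46 (limma adjusted p = 0.0225), Btc by 3.33 (0.0294), Sprr1b by 2.68 (0.0225), Tgfb2 by 1.93 (0.0299), Mycn by 1.503 (0.0456) and Dnase1l2 by 3.06 (0.0225). The same genes differed from IFE cells by 2.93, 3.13, 2.30, 2.25, 1.87 and 3.06. Other called increases over IFE were near the CD34+ level, with Apbb1 at -0.03, Serpinb11 at 0.17, Shisa2 at -0.24 and Hoxd8 at -0.36 against CD34+ cells. Lgr5 (-1.12), Ccn2 (-0.99), Grem1 (-0.79) and Lhx2 (-0.79) were lower in value than in CD34+ cells and not called. Il31ra (-1.79, adjusted p = 0.0285), S100a4 (-1.51, 0.0432) and Fzd2 (-1.69, 0.0431) were higher than in IFE cells but lower than in CD34+ cells. Gli1 differed from CD34+ cells by 0.98 (adjusted p = 0.258) and Wif1 by 1.79 (0.107). The count against CD34+ was 40, 1 and 3 without IFE replicate 1, 2 or 3, since the groups share an estimate of the spread, and 1 with the replicate block.

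The Gli1+ arrays differed from each other in many genes. In 3025 of all genes (31.7%) they lay more than 1 log2 unit apart, and in 44 of the 206 called genes (21.4%). Among the genes with the largest gaps, Hoxc9, a homeobox gene, stood at 8.69 on replicate 2 and 4.55 on replicate 3, against 4.81, 4.70 and 4.82 on the IFE arrays. Cdh3, P-cadherin of the follicle, stood at 9.13 on replicate 2 and 4.99 on replicate 3, against 6.57, 5.21 and 5.74 on the IFE arrays. The reverse held for Aif1, a macrophage gene, with 5.30 on replicate 2 and 9.31 on replicate 3, against 4.67, 5.41 and 6.29 on the IFE arrays. Other probes gave smaller mean differences from IFE, -0.08 and 0.17 in place of 1.22 for Cdh3 and 0.13 in place of 1.85 for Aif1. None of the 12 genes named by the largest gap was called. The Gli1+ group holds 2 samples, so these gaps have no error estimate of their own.

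**Figure D5:**
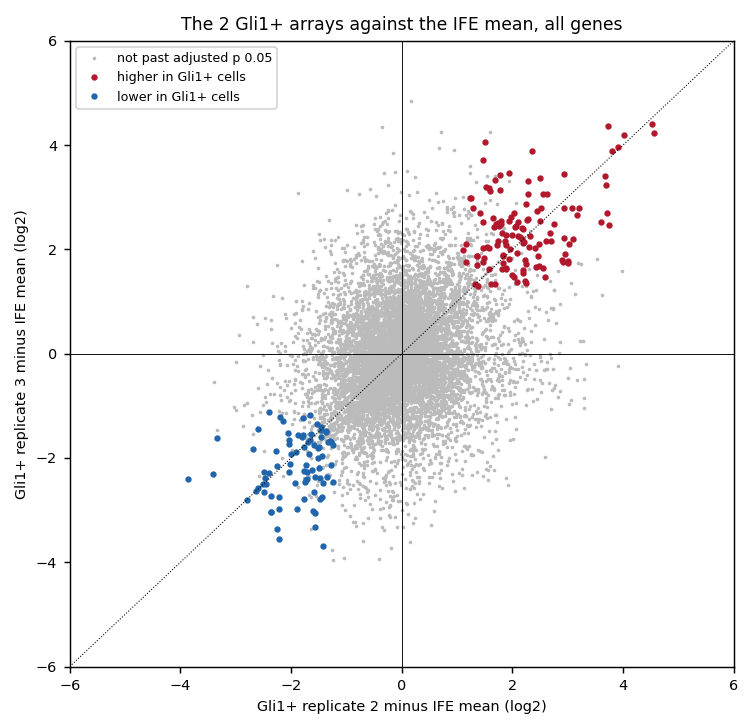
Each point is a gene, with Gli1+ replicate 2 minus the IFE mean on the x axis and Gli1+ replicate 3 minus the IFE mean on the y axis, both in log2 units, and the dotted line marks equal values. The 206 called genes lie in the upper right and lower left corners, where both arrays moved more than 1 log2 unit the same way, while many uncalled genes moved on 1 array alone.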

How the data were processed

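RNA of sorted keratinocytes was extracted with Trizol, labelled by the Nugen ovation-pico method and measured on bead arrays, per the labels' protocols, with GenomeStudio 2010.3, per the submitters' processing notes. Per the file headers, the deposited matrix gives for each probe a mean bead intensity with its standard error and bead number, and a detection p-value. The deposited value table is on a log2 scale, differs from log2 raw intensity by at most 5.5e-05 and served as an alternative. No genome build is given in the sources used here.

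Of 25697 probes, 23978 carried 1 symbol, none several and 1719 none. Intensities were background-corrected and quantile normalised with neqc in limma 3.58.1 (R 4.3.3, offset 16). A probe was kept where 2 or more arrays had a detection p under 0.05 (13361 with a gene), and the brightest probe was used for each of 9545 genes (2588 had several). All 8 arrays were fitted with lmFit and eBayes, two-sided (residual degrees of freedom 5, prior 4.84), with Benjamini-Hochberg adjustment over all genes. The fit was tested on simulated data in which each gene had the same spread in all groups. That test cannot show how the fit does where the Gli1+ arrays vary more than the others. A fold is given as "at least" where no array of the dimmer group detected the probe, against the lowest detected signal. Precision is limited by the number of arrays.

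Members, 43 gene lists and the rule for named genes were chosen with earlier results of these data known. The rule took Gli1, Prdm1, Wif1, Cd34, Itga6 and Ptch1, the 12 largest called differences each way, up to 4 called members per list or 2 as values, and the 6 largest gaps each way between the Gli1+ arrays. Other genes are given as list members, or were chosen after their values were seen. Replicates of the same number share a pool of 2 mice. The correlation of their deviations from the group means was -0.031 to 0.091 across genes, and the blocked value is given where it changes a call. Alternatives were other background corrections, normalisations, filters, probe summaries, weights and moderation, the 5 arrays alone, the block and leaving out each array. No slide is named, so a slide block was not run.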

Additional observations from a re-analysis of the deposited data

How the results depend on the processing

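The 206 calls kept their direction under every alternative in which they were tested, but not their side of the threshold. Fitting only the 5 arrays of both groups called 6 genes, 6 higher and 0 lower, and array quality weights called 3 (3 higher, 0 lower, and 1 against CD34+), with a weight of 0.41 for each Gli1+ array. The replicate block called 67 genes (55 higher and 12 lower) and 1 against CD34+. Leaving out 1 array gave 39 to 1225 calls, 34 to 604 higher and 5 to 621 lower, and 1 to 1211 against CD34+. Lower calls numbered 36 with median centring, 49 with cyclic loess, 12 with the deposited log2 values and 50 without the detection filter, against 82. Higher calls made up 60.2% of all calls, against 82.9% with median centring, 77.7% with cyclic loess and 92.9% with the deposited values, while the median of all genes was 0.0965 with median centring and 0.0554 with cyclic loess in place of -0.0542. Against CD34+, normexp with an offset of 50 gave 213, no background correction 206 and trend with robust moderation 221, in place of 136. Differences that turned, none of them called, were Smo (0.095 with the mean of probes) and, over the fits that leave out an array, Ifi35 (-0.31 to 1.96), Cyp51 (-2.35 to 0.20), Ngfr (-1.90 to 0.60) and Rplp0 (-2.50 to 0.67). The cause was not tested. Of 51 named genes past the threshold, 48 lost it under at least 1 alternative. Depth is limited by signal over background, since the lowest detected log2 level was 5.22 to 5.62 on these 5 arrays.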
